A study of Drosophila melanogaster with 4 samples.

Results

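The Prd peaks of chromosome 3 are the 397 regions that the deposited peak list places on the chromosome arms 3L and 3R of Drosophila melanogaster, out of 1155 regions in the whole list. They were chosen by the arm name alone, and the heterochromatic scaffolds 3LHet and 3RHet were left out. There were 175 peaks on 3L and 222 on 3R. Together they made up 34.4% of the list (95% Clopper-Pearson interval 31.6 to 37.2%).

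The peaks came from chromatin immunoprecipitation followed by sequencing (ChIP-seq) on whole embryos, with ChIP DNA (2 samples) and input DNA (2 samples). All 4 samples came from embryos of a 0 to 12 h egg collection of the strain Y cn bw sp, fixed in 1.8% formaldehyde for 15 min. Both groups shared one genotype, in which the alleles y[1] and oc[R3.2] are listed first. The same genotype carries Gr22b[1] and Gr22d[1], cn[1] with CG33964[R4.2], and bw[1] with sp[1]. It also carries LysC[1] and lab[R4.2], then MstProx[1], GstD5[1] and Rh6[1]. The rabbit polyclonal antibody RF13 was raised against the C-terminal part of Prd, residues 355 to 613 with a stretch between residues 552 and 572 removed. Whole embryos of a 0 to 12 h collection mix many cell types and stages, so a peak gives neither the cells nor the hour in which the region was recovered.

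Paired (Prd) is a pair-rule transcription factor, one of the proteins that divide the early embryo into repeating units along its length. It binds DNA through 2 domains, a paired domain and a homeodomain, and is known for switching on segment-polarity genes in alternate segments. Its own gene, prd, lies on 2L. Chromosome 3 carries many genes of the same patterning system. The gap gene knirps (kni) is on 3L. On 3R are hunchback (hb), a gap gene, fushi tarazu (ftz) and odd-paired (opa), both pair-rule genes, and the homeotic genes Antennapedia (Antp) and Ultrabithorax (Ubx), which give segments their identity. The peaks were not assigned to these or any other genes, because the positions are on FlyBase release 5 and the gene table used here is on release 6.

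Each peak has a start, an end and 1 score, the authors' own value from the peak caller, on a scale that the sources used here do not give. The score was used only to describe and rank peaks within this list. The list holds no value per sample. No peak therefore carries an error between replicates, read depth is unknown, and no p-value is given. Intervals below are 95% intervals, Clopper-Pearson for shares and order-statistic for medians. They treat peaks as independent and cover counting error only.

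The highest-scoring peaks of chromosome 3 lay at both ends and in the middle of the spans between the arms' outermost peaks. On 3L the first was at 22401011 to 22401592, with a score of 228, the highest of the whole list. It was 582 bp wide, lay 0.93 Mb from the last peak at the centromere end of the arm, and was 145 kb from its nearest neighbour. The second on 3L lay near the opposite end, at 698879 to 699908, with a score of 209 and a width of 1030 bp. The third, at 20776598 to 20778435, had a score of 128 and was the widest peak of the arm at 1838 bp. The scores of 3L then dropped below 100. The peaks at 19784035 to 19784689, 11208137 to 11208998 and 15133639 to 15134890 had scores of 96.5, 88.7 and 83.0. At 5144777 to 5145806 a peak with a score of 63.3 stood alone, 645 kb from its nearest neighbour. The last 3 of the 10 highest on 3L, at 6174644 to 6175389, 11374467 to 11375019 and 15195980 to 15196678, had scores of 52.3, 52.3 and 51.7.

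On 3R the highest score was 219, at 304797 to 305509, again towards the centromere end of the span, 0.25 Mb from the first peak of the arm. The next, at 10919492 to 10920498, had a score of 203 and a width of 1007 bp, and its nearest neighbour was 103 kb away. The third on 3R, at 15715742 to 15716480, scored 135, and the one at 1089861 to 1090686 scored 107. The peak scoring 107 had another 1.01 kb away. Below a score of 100 came the peaks at 16654836 to 16656317 (93.2), 26163897 to 26164713 (88.1), 4859408 to 4859971 (84.3) and 24636976 to 24637813 (78.7). The last of the 10 were at 10337207 to 10337838 (76.9) and 13506449 to 13507895 (73.2). The 10th highest score was thus 51.7 on 3L and 73.2 on 3R.

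These 20 peaks were spread over the arms. Each arm's span was divided into 4 equal bins, numbered 1 to 4 from the centromere end outwards. In that order the bins held 3, 2, 3 and 2 of the 10 on 3L and 3, 3, 2 and 2 of the 10 on 3R. Of the 10 on each arm, 4 on 3L and 2 on 3R had another peak within 10 kb, measured between midpoints. Their widths ran from 553 to 1838 bp on 3L and from 564 to 1482 bp on 3R.

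**Figure D1:**
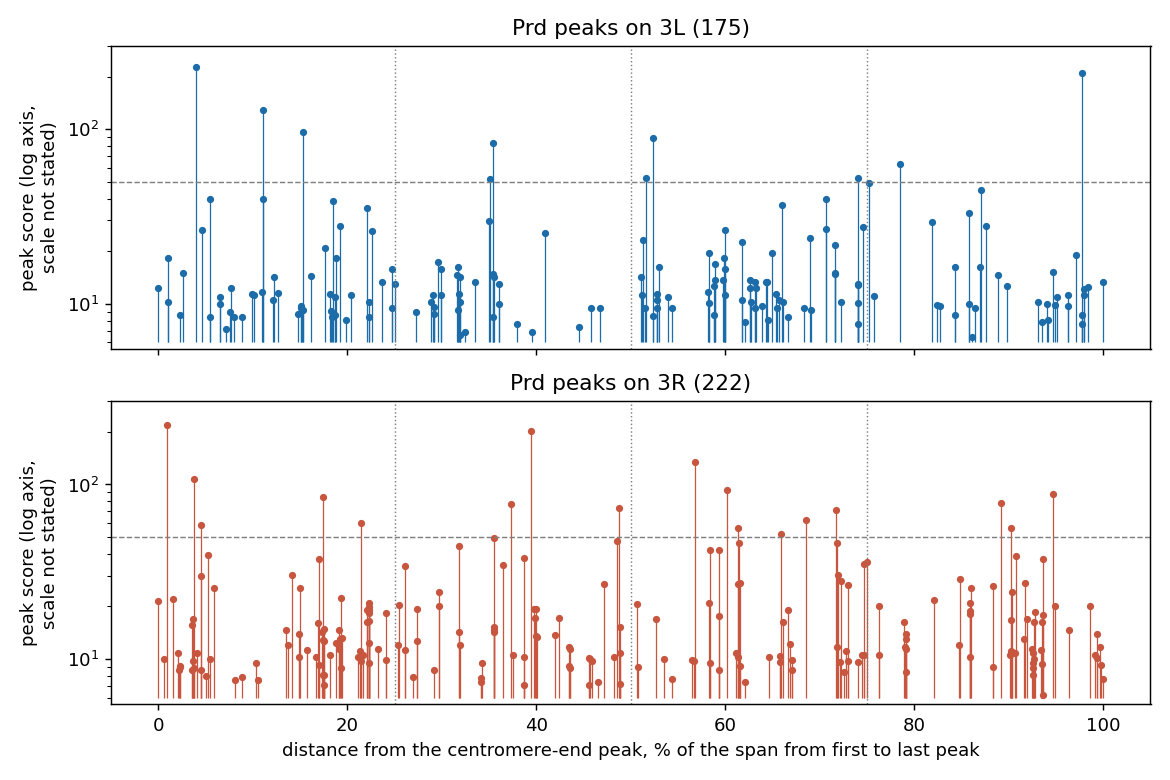
Score of each Prd peak (vertical log axis, scale not stated) against its distance from the peak at the centromere end, in percent of the arm's span between its outermost peaks, for 3L (upper, 175 peaks) and 3R (lower, 222 peaks). Dotted lines mark the borders of the 4 bins and the dashed line a score of 50, which 10 peaks on 3L and 17 on 3R reached, in every bin of both arms.

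Most peaks of both arms had scores far below these. The median score was 11.4 on 3L (10.9 to 12.7) and 12.8 on 3R (11.4 to 14.6), and the intervals overlapped. The interquartile range was 9.44 to 16.3 on 3L and 9.93 to 20.8 on 3R. Scores under 10 belonged to 58 of 175 peaks on 3L (33.1%, interval 26.2 to 40.6%) and to 61 of 222 on 3R (27.5%, interval 21.7 to 33.9%). Scores of 20 or more belonged to 34 peaks on 3L (19.4%, interval 13.8 to 26.1%) and to 62 on 3R (27.9%, interval 22.1 to 34.3%). Scores of 50 or more were reached by 10 peaks on 3L (5.71%, interval 2.77 to 10.3%) and 17 on 3R (7.66%, interval 4.52 to 12.0%). At each of these levels 3R had the larger share of higher scores, and at each the intervals of both arms overlapped. The share above 13.9, the median of the whole list, was 34.9% on 3L (61 peaks, interval 27.8 to 42.4%) and 45.5% on 3R (101 peaks, interval 38.8 to 52.3%). The lowest scores were 6.42 on 3L, at 3394831 to 3395193, and 6.19 on 3R, at 25869249 to 25869472. The next lowest on 3L was 6.65, at 15948571 to 15948786. It was followed by a tie at 6.89 between 14169832 to 14170048 and 15822812 to 15823012. On 3R the peaks at 4880880 to 4881121, 10729261 to 10729570 and 12636002 to 12636253 tied at 7.13.

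Low scores repeated the same values. Among the 301 peaks of chromosome 3 with a score under 20, there were 124 distinct scores, and 220 of the peaks shared their exact score with at least 1 other. The commonest value, 9.44, occurred 15 times. Among the 96 peaks with a score of 20 or more, 40 shared a score. Peaks that share a score cannot be ranked against each other by it.

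The peaks were narrow on both arms. The median width was 311 bp on 3L (276 to 340 bp) and 339.5 bp on 3R (310 to 390 bp), with interquartile ranges of 234.5 to 444 bp on 3L and 247 to 565 bp on 3R. The smallest width was 201 bp on both arms, and also on 2L, 2R and X. Whether it is a limit set in peak calling was not tested. Peaks under 250 bp, close to this smallest width, made up 32.6% of 3L (57 peaks, interval 25.7 to 40.1%) and 26.6% of 3R (59 peaks, interval 20.9 to 32.9%). Widths of 500 bp or more were found for 37 peaks on 3L (21.1%, interval 15.3 to 27.9%) and 69 on 3R (31.1%, interval 25.1 to 37.6%). In all, peaks covered 70108 bp of 3L and 100821 bp of 3R, which is 0.303% and 0.366% of the spans.

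Width and score rose together, with Spearman's rho of 0.68 across the 175 peaks of 3L and 0.77 across the 222 peaks of 3R. Both values come from the same peak calls, and peaks are not independent. Peaks with scores under 10 had a median width of 238 bp on 3L and 239 bp on 3R. Peaks with scores of 50 or more had medians of 804 bp on 3L and 792 bp on 3R. The rank of width was not the rank of score at the top. The widest peak of chromosome 3 was on 3R at 24976775 to 24978923, 2149 bp wide, with a score of 24.3, the 48th of its arm. On 3L the next widest peaks, at 7363959 to 7365428 (1470 bp) and 9438500 to 9439785 (1286 bp), had scores of 23.7 and 26.5. All 9 peaks of at least 1 kb on 3L and all 15 on 3R had scores of 20 or more, with medians of 40.0 on 3L and 35.8 on 3R.

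**Figure D2:**
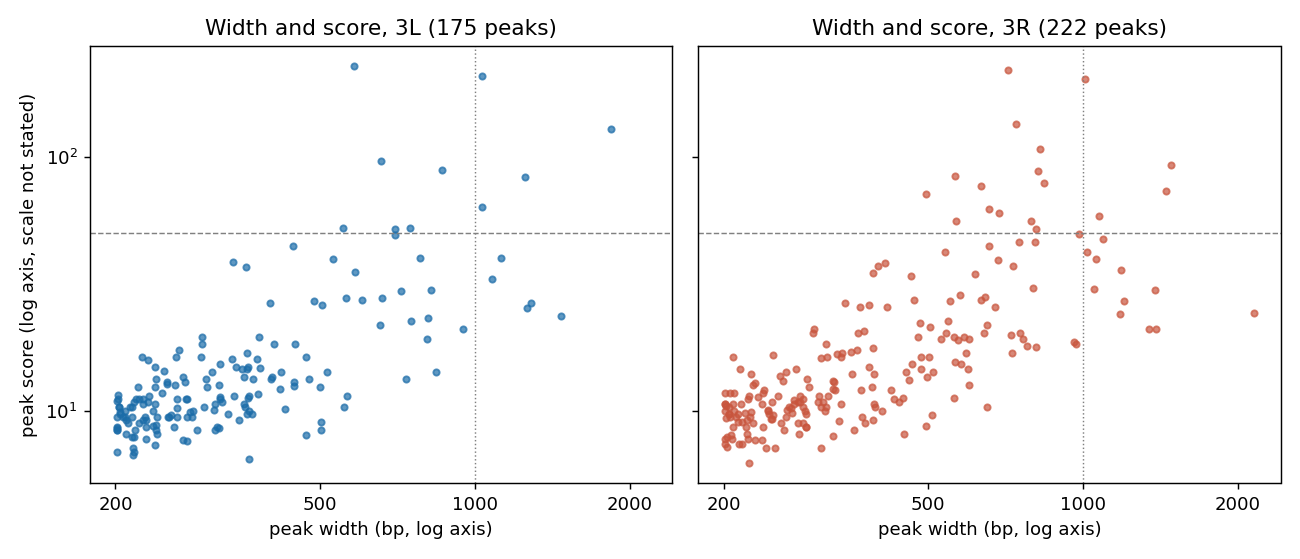
Width (bp, log axis) against score (log axis, scale not stated) of each Prd peak on 3L (left, 175 peaks) and 3R (right, 222 peaks). Dashed and dotted lines mark a score of 50 and a width of 1 kb, and the highest score of each arm, 228 on 3L and 219 on 3R, has a width of 582 and 713 bp, below the widest peaks of 1838 bp on 3L and 2149 bp on 3R.

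Chromosome 3 peaks were divided between the arms much as the arms' spans were. The first peak of 3L was at 175501 to 175976 and the last at 23331521 to 23331759, a span of 23.2 Mb. On 3R the first was at 58103 to 58605 and the last at 27631365 to 27631587, a span of 27.6 Mb. These spans stood for arm lengths, and 3L made up 45.6% of their sum. It held 44.1% of the peaks (interval 39.1 to 49.1%), an interval that contains the share of the span. Per Mb of span there were 7.56 peaks on 3L and 8.05 on 3R, a ratio of 0.94 (0.77 to 1.15). Among peaks above the list's median score, the ratio of 3L over 3R was 0.72 (0.51 to 0.998), with 61 peaks on 3L and 101 on 3R. The 3L share of these peaks was 37.7% (30.2 to 45.595%), an interval that just leaves out the 45.646% of the span. It contains that share when peaks within 1 kb are merged first (38.4%, interval 30.6 to 46.7%).

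With the span cut into 4 bins, the peaks were uneven along the arms. From bin 1 at the centromere end to bin 4, 3L held 49, 32, 60 and 34 peaks and 3R held 70, 50, 47 and 55. Bin 1 held 28.0% of the 3L peaks (21.5 to 35.3%) and 31.5% of the 3R peaks (25.5 to 38.1%). An even spread would give 25% in each bin, which the 3L interval contains and the 3R interval does not. On 3L bin 3 stood highest, with 34.3% (27.3 to 41.8%), and bin 2 lowest, with 18.3% (12.9 to 24.8%). Neither of those intervals contains 25%, while those of bins 1 and 4 of 3L and bins 2 to 4 of 3R do. These 8 intervals treat grouped peaks as independent and may be too narrow. With peaks within 1 kb merged, bin 1 held 28.6% of the 3R peaks (22.2 to 35.6%), an interval that contains 25%. With the span cut into 3 bins instead, the interval of each bin of both arms contained an even 33.3%. On 3L the shares then ran from 37.7% in bin 1 (30.5 to 45.3%) to 28.0% in bin 3 (21.5 to 35.3%). The departures from an even share were thus seen with 4 bins and not with 3. The middle one of 3 bins takes in parts of both bin 2 and bin 3 of the 4. The cut into 3 therefore cannot check the difference between those 2 bins on 3L, whose intervals did not overlap.

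Scores did not follow the same order. Medians ran 11.1, 11.1, 12.5 and 11.2 over the bins of 3L and 12.3, 13.4, 11.7 and 13.9 over those of 3R, with overlapping intervals throughout. Median widths ran from 274.5 to 340.5 bp on 3L and from 317.5 to 365 bp on 3R. Scores of 50 or more occurred 3, 2, 3 and 2 times over the bins of 3L and 5, 3, 6 and 3 over those of 3R. The 1 Mb counted inwards from the outermost peak at the centromere end held 6 peaks on 3L and 12 on 3R. On each arm these included the highest score. Distances to the ends of the arms themselves were not measured. The 1 Mb counted in the same way at the telomere end held 10 peaks on 3L and 8 on 3R, with highest scores of 209 on 3L and 20.2 on 3R.

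**Figure D3:**
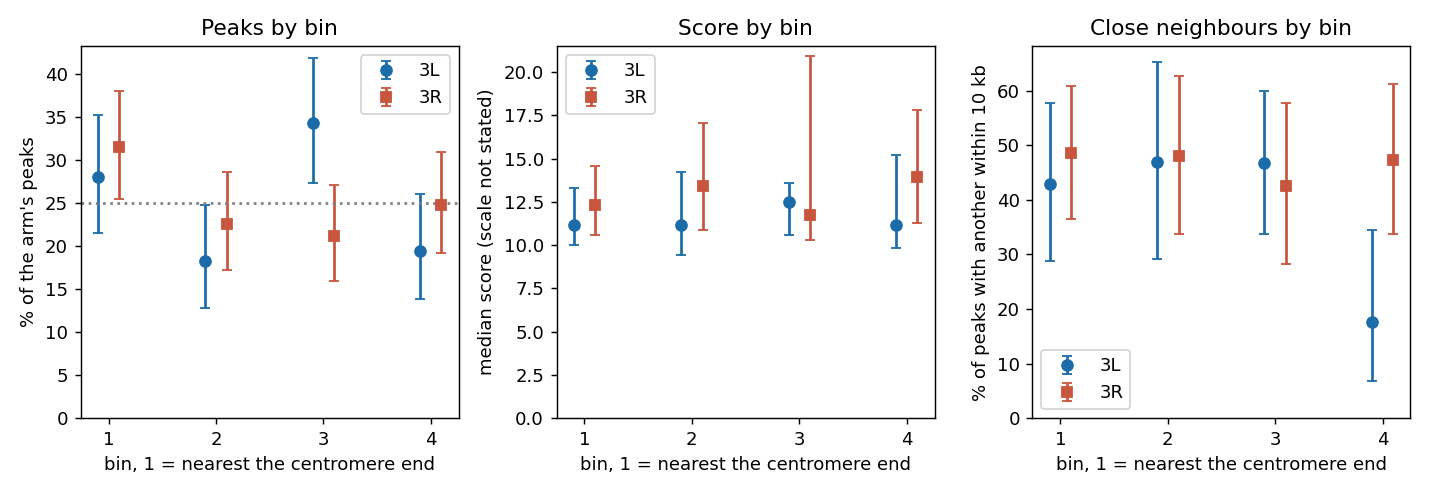
Share of the arm's peaks (left, percent), median score (middle, scale not stated) and share of peaks with another within 10 kb (right, percent) in each of the 4 bins of the span of 3L (circles) and 3R (squares), numbered from the centromere end; bars are 95% intervals and the dotted line is an even 25%. Bin 3 of 3L holds 34.3% of its peaks, and bin 4 of 3L, farthest from the centromere end, has the lowest share with a close neighbour, 17.6%.

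In windows of 1 Mb lying wholly inside the span, 3L had 7.45 ± 4.57 peaks (SD, 22 windows) and 3R had 7.96 ± 4.22 (SD, 26 windows). The variance was 2.81 times the mean on 3L and 2.24 times on 3R. No such window was empty. The busiest window of 3L, 8000001 to 9000000, held 17 peaks, of which only 1 scored above 20, at 36.7. The busiest of 3R, 25000001 to 26000000, held 19 peaks with a highest score of 39.1. Neither window held a peak with a score of 50. The emptiest window of 3R, 22000001 to 23000000, held a single peak, with a score of 21.7. On 3L 4 windows had 2 peaks each, those starting at 2000001, 10000001, 12000001 and 13000001. The busiest window of each arm was thus not the one with its highest score. Other windows with at least 14 peaks differed. On 3L, 9000001 to 10000000 and 15000001 to 16000000 held 14 each, with highest scores of 26.5 and 83.0. On 3R, 1000001 to 2000000 held 14 and 4000001 to 5000000 held 16, with highest scores of 107 and 84.3.

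Between the outermost peaks of each arm, the longest stretches without a peak were of similar length on both arms. Sequence beyond the outermost peaks was not counted. On 3L they ran from 11506135 to 12511613 (1.01 Mb), 9852039 to 10732913 (0.88 Mb) and 13013971 to 13855772 (0.84 Mb). All 3 lay in bins 2 and 3 of the arm. On 3R they ran from 18944238 to 19832252 (0.89 Mb), 2963349 to 3789001 (0.83 Mb) and 21879676 to 22701521 (0.82 Mb), in 3 separate parts of the arm.

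Neighbouring peaks lay at very unequal distances. The median distance between neighbouring midpoints was 69.2 kb on 3L (36.1 to 105.5 kb) and 37.4 kb on 3R (27.5 to 57.8 kb), while the means were 133 kb on 3L and 125 kb on 3R. The interquartile range ran from 11.4 to 190.1 kb on 3L and from 7.52 to 173 kb on 3R. Of 174 gaps between peak edges on 3L, 20 were under 1 kb (11.5%, interval 7.16 to 17.2%) and 75 were 100 kb or more (43.1%, interval 35.6 to 50.8%). Of 221 gaps on 3R, 33 were under 1 kb (14.9%, interval 10.5 to 20.3%) and 74 were 100 kb or more (33.5%, interval 27.3 to 40.1%). The smallest gap was 53 bp on 3L and 46 bp on 3R, and 7 gaps on 3L and 18 on 3R were under 200 bp. Whether such closely spaced peaks are separate sites or pieces of one enriched region cannot be told from the list.

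**Figure D4:**
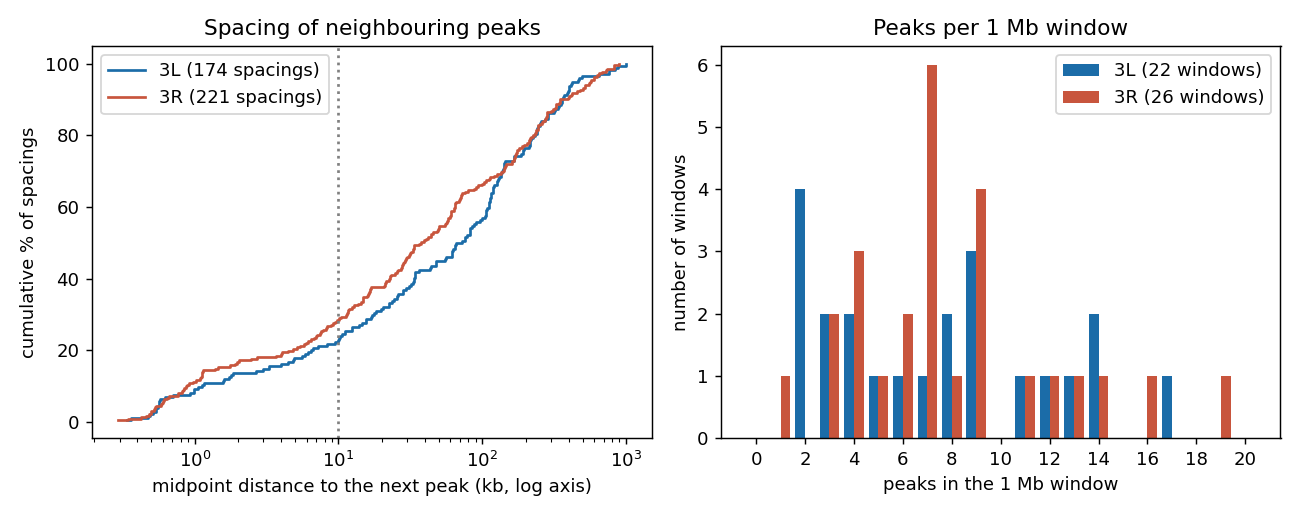
Left, cumulative percentage of distances between neighbouring peak midpoints (kb, log axis) on 3L (174 spacings) and 3R (221 spacings), with a dotted line at 10 kb; right, number of 1 Mb windows by the peaks they hold (22 windows on 3L, 26 on 3R). Between 10 and 100 kb the curve of 3L lies below that of 3R (medians 69.2 and 37.4 kb).

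Another peak lay within 10 kb for 70 of 175 peaks on 3L (40.0%, interval 32.7 to 47.7%) and for 104 of 222 on 3R (46.8%, interval 40.1 to 53.6%). The share was 42.9%, 46.9%, 46.7% and 17.6% over bins 1 to 4 of 3L, and between 42.6 and 48.6% in each bin of 3R. The low value is 6 of 34 peaks in bin 4 of 3L (interval 6.76 to 34.5%). Its interval overlapped those of the other 3L bins. The peak alone at 5144777 to 5145806 belongs to that bin.

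Peaks with and without a neighbour had overlapping intervals of the median score. On 3L the median score was 11.2 for peaks with a neighbour (10.3 to 12.7, 70 peaks) and 11.4 for those without (10.6 to 13.6, 105 peaks). On 3R it was 13.9 with a neighbour (11.4 to 16.2, 104 peaks) and 12.0 without (10.9 to 14.2, 118 peaks). The sign of the difference was not the same on both arms. Among peaks with a score of 50 or more, 4 of 10 on 3L and 6 of 17 on 3R had a neighbour. Scores of adjacent peaks were hardly related. Spearman's rho between a peak and the next was -0.06 over 42 pairs on 3L and -0.19 over 64 pairs on 3R when their edges were within 10 kb, and 0.15 over 132 pairs on 3L and 0.09 over 157 pairs on 3R when they were farther apart. The rho values share peaks between pairs and are a description only.

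Chaining peaks whose edges were at most 10 kb apart gave 133 groups on 3L, of which 102 were single peaks, 22 pairs, 8 triplets and 1 a group of 5. On 3R it gave 158 groups, of which 116 were single peaks, 30 pairs, 7 triplets and 5 held 4 or more. Groups of at least 2 peaks had a median length of 3.02 kb on 3L (31 groups) and 4.06 kb on 3R (42 groups). In those groups the highest score was a median of 1.39 times the second on 3L and 1.83 times on 3R. The 6 groups of 4 or more peaks took 2 shapes, one with a single high peak beside low ones and the other with scores of the same order throughout.

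The group of 5 on 3L, at 6174644 to 6181172, had the first shape. Its first peak was 746 bp wide with a score of 52.3. The 4 peaks after it were 252 to 311 bp wide and had scores of 13.0, 10.1, 7.62 and 12.8, so the first was 4.03 times the second highest. On 3R the group at 9837210 to 9858458 was similar, with 3 peaks of 14.2 to 15.2 and a last peak, 980 bp wide, of 49.6. Its peaks were 5.11 to 8.10 kb apart.

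The remaining 4 groups, all on 3R, had no dominant peak. The group of 7 at 6207113 to 6213825 had scores, in order along the arm, of 16.6, 19.8, 9.44, 18.3, 12.3, 19.1 and 20.9. Its gaps were 87 to 617 bp, and its widths in the same order were 249, 725, 206, 968, 293, 764 and 1343 bp, alternately narrow and broad up to the sixth. The group of 4 at 23744480 to 23748487 had scores of 18.9, 18.0, 10.3 and 20.9 and gaps of 56 to 428 bp, and peaks covered 84.4% of its 4.01 kb. In both groups the last peak along the arm was the widest, 1343 bp in the group of 7 and 1385 bp in the group of 4, and both had a score of 20.9.

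The group of 6 at 25583394 to 25599229 consisted of 3 close pairs. The pairs began at 25583394, 25590717 and 25597989, which is 7.32 kb from the first to the second and 7.27 kb from the second to the third. The gap within a pair was 218, 80 and 441 bp, and the scores were 10.8 and 8.11 in the first, 8.90 and 9.44 in the second and 16.2 and 9.99 in the third. The group of 4 at 4880880 to 4891258 was made of 2 such pairs, with scores of 7.13 and 8.11 and then 12.7 and 14.9, separated by 8907 bp.

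**Figure D5:**
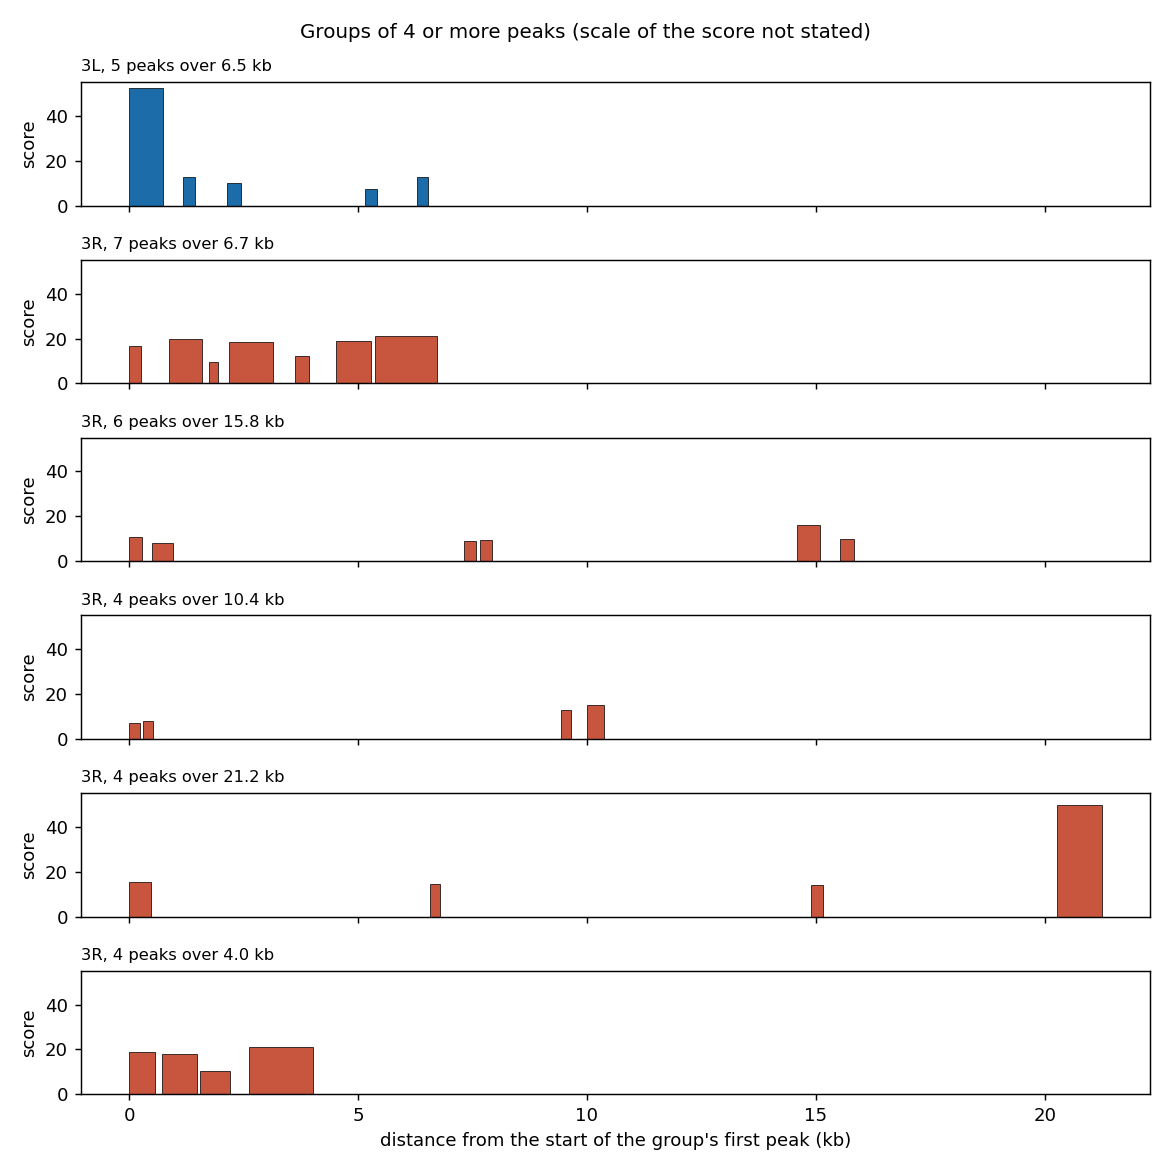
Peaks of the 6 groups of 4 or more on 3L (top row) and 3R (other rows), drawn as bars from start to end against the distance from the group's first base (kb), with the score as height (scale not stated). The 3L group and the 21.2 kb group of 3R each have 1 high peak (52.3 and 49.6) beside low ones, and the group of 6 shows 3 pairs, 7.32 and 7.27 kb apart.

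Set beside the arms of chromosome 2 without 1 dense region, chromosome 3 gave similar medians and densities. The region left out holds 84 peaks on 2L, 21416997 to 21543149. It was the 2L group with the most peaks when peaks were chained over gaps of at most 50 kb. The region was thus picked from this same list, and no group was removed from 3L or 3R. Leaving the region out lowers the density of 2L by construction. With the region, 2L had 11.5 peaks per Mb, and 63.6% of its peaks had a neighbour within 10 kb (57.5 to 69.4%). Both values were above those of chromosome 3 given below, and the intervals of the neighbour share did not overlap. The median score of 2L was then 13.3 (12.6 to 14.4) and its median width 327.5 bp (307 to 367 bp). Values for 2L below are without the region. The median score was 12.0 on chromosome 3 (11.3 to 13.0) and 12.0 on 2L and 2R together (11.5 to 13.0). The median width was 322 bp on chromosome 3 (307 to 355 bp) and 311 bp on 2L and 2R (300 to 322 bp). There were 7.83 peaks per Mb of span on chromosome 3 and 8.35 on 2L and 2R. A neighbour within 10 kb was present for 43.8% of chromosome 3 peaks (38.9 to 48.9%), for 46.7% on 2L (39.2 to 54.2%) and for 46.4% on 2R (38.9 to 54.0%). Scores of 50 or more belonged to 6.80% of chromosome 3 peaks (4.53 to 9.74%) and to 6.41% on 2L and 2R (4.10 to 9.46%). The X chromosome stood apart from chromosome 3 in score, with a share above the list's median of 40.8% on chromosome 3 (35.9 to 45.8%) and 64.6% on X (54.4 to 74.0%). X also had fewer peaks per Mb of span, 4.75, and a larger median width, 452 bp (360 to 575 bp). Its share with a neighbour within 10 kb, 40.4% (30.7 to 50.7%), had an interval overlapping that of chromosome 3. These comparisons set values of 1 list side by side, and no test was made on them.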

How the data were processed

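Per the file headers, the deposited peak list is on FlyBase release 5 and its source field names MACS. BWA, MACS2, CASAVA 1.7.0.2, CASAVA 1.7.0.3 and the build BDGP5 appear, with no role, in the submitters' processing notes. The peak threshold, the use of input, the treatment of replicates and the scale of the score that the authors deposited for each peak are not stated by the file or labels. The deposited list has no value per sample, so depth is unknown and replicates could not be compared. Whether numbered replicates were separate embryo collections is not in the labels.

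Width was end minus start plus 1, and neighbour distance was taken between midpoints. The arm's span between its outermost peaks was cut into 4 equal bins, and the centromere end was the high end of 3L and the low end of 3R. Groups were chained over gaps of at most 10 kb between edges. The peaks named are the 10 highest-scoring, 3 widest, 3 lowest-scoring with their ties, first and last of each arm. Also named are the groups of 4 or more, the 3 longest stretches between neighbouring peaks and the fullest and emptiest 1 Mb windows. The members and lists were chosen with earlier results of these data known. The tables used Python 3.11.15, NumPy 2.4.6, pandas 2.3.3, SciPy 1.17.1 and Matplotlib 3.10.9, and the functions were tested on simulated data. No sequence is shown, since no release 5 genome was used here.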

Additional observations from a re-analysis of the deposited data

Results flagged for a closer look

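Chromosome 3 sequence outside the placed arms also held peaks. They counted towards the total, ranking and median score of the whole list but belonged to none of the sets compared. The heterochromatic scaffolds 3LHet and 3RHet had 9 peaks, 7 on 3LHet and 2 on 3RHet. Their median score was 12.2, with a range of 9.02 to 42.5, and their widths ran from 220 to 563 bp. The highest, with a score of 42.5, was on 3LHet at 1396450 to 1397012. With no control peaks in the list and depth unknown, no background level could be set beside them.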

How the results depend on the processing

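Of 66 recomputed values, 33 stayed within the interval of the reported value and 33 moved. The tally does not measure stability, because some values answer a different question from the reported one. Shares in 3 bins were judged against intervals for 4 bins, and neighbour shares at 5 and 50 kb against those at 10 kb. Counts were allowed 1.5 times, and differences between arms the margin of the wider of the arm medians' intervals. Within that margin, the median width difference (3L minus 3R), reported as -28.5 bp, still grew to -63 bp with peaks merged, -64 bp above the list's median score and -63.5 bp with both. Leaving out the fullest 1 Mb window of each arm moved none. Keeping scores above the list's median left 61 peaks on 3L and 101 on 3R, with 3L at 37.7% of them and 0.72 times 3R per Mb. By construction it raised the median score to 23.2 on 3L and 22.1 on 3R, turning their difference (3L minus 3R) to 1.17, against a reported -1.36. Median widths became 515 and 579 bp, median spacings 204 and 185 kb, and shares with a neighbour 11.5% and 23.8%, 3L first in each. Merging peaks within 1 kb brought the median spacing to 93.6 kb on 3L (64.5 to 114.2 kb) and 60.3 kb on 3R (41.7 to 71.9 kb). Of the 2 spacings only that of 3R left its reported interval, and 3L kept the longer one. The same merging brought the shares with a neighbour to 24.5% on 3L and 28.6% on 3R. Both choices together, added after seeing the data, left 58 peaks on 3L and 93 on 3R, with 3L at 38.4% of them and 0.74 times 3R per Mb. Median scores were then 24.5 and 25.7, widths 593.5 and 657 bp, spacings 221 and 191 kb, and shares with a neighbour 3.45% and 12.9%. A neighbour within 5 kb was found for 30.9% on 3L and 36.0% on 3R, and within 50 kb for 68.6% and 75.7%. With 3 bins in place of 4, bin 1 of 3L held 37.7% of its peaks, a larger share of a larger bin. Its interval (30.5 to 45.3%) contained an even 33.3%, as did those of the other bins of both arms. For the arm ratio the cause was not tested. With no depth given, no limit on missed peaks can be set. No paired analysis was possible because values per replicate are not in the list, which also kept any single replicate from being omitted.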
